A study of Homo sapiens with 21 samples.

Results

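The cells described here are the 2 control lines of a study that overexpressed splicing factors or MYC in HCC1806, an established human triple-negative breast cancer cell line grown as an adherent culture. The question was which baseline expression profile the control lines share and how far they differ from each other. They are the 3 samples titled 3XCTL, whose genotype label reads control, and the 3 samples titled 1xCtrl, labelled as a control with a single plasmid. Both were chosen by their titles and make up 6 of the 21 samples of the series. The 3XCTL samples were deposited in a first count table together with 3 samples whose labels give joint overexpression of the SR genes SRSF2, SRSF3 and SRSF7 (3XSR) and 3 with overexpression of MYC (MYC-OE). The 1xCtrl samples were deposited in a second table, which also holds 3 samples for each of these SR genes overexpressed singly (SRSF7-OE, SRSF3-OE and SRSF2-OE). Control line, plasmid content and table are confounded, so that a difference between 3XCTL and 1xCtrl cannot be assigned to any of them: the 3 cannot be told apart. The vectors, the number of plasmids in 3XCTL, the selection and the passage of each line, and whether a line is 1 clone, are not given in the sources used here. The labels do not say that replicates came from separate cultures, so p-values measure only the spread between these samples, which may be technical.

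Triple-negative breast cancers are defined by the absence of the estrogen and progesterone receptors and of HER2 amplification, and many of them express keratins of the basal layer of the breast epithelium. SRSF2, SRSF3 and SRSF7 are SR proteins, RNA-binding factors that select splice sites in pre-mRNA, and MYC is a transcription factor of growth and ribosome synthesis. A control line sets the baseline against which the engineered lines of a study are read.

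The data are read counts per gene. The control samples held 176784267 to 236495865 counts, and 21825 to 23103 genes reached 10 counts in a sample. Mitochondrial genes took 10.3% to 12.8% of the counts, and the lines overlapped (exact permutation test, p = 0.7; 3 samples against 3 cannot go below 0.1). Pairs of 3XCTL replicates differed by a median of 0.0809 to 0.172 on the log2 scale over 14571 genes. Replicate 2 of 3XCTL differed from the other two by 0.160 and 0.172, while replicates 1 and 3 differed by 0.0809. Replicate 2 of 1xCtrl stood further apart from its group: it differed from the other two by 0.207 and 0.244, while replicates 1 and 3 differed by 0.0849. The 9 pairs of a 3XCTL with a 1xCtrl sample differed by 0.196 to 0.299 (median 0.264). The medians for an overexpressing group against its own control ran from 0.215 in 3XSR to 0.263 in SRSF3-OE. Samples also differed in how transcripts of high and of low GC content were represented: the median deviation of the tenth of genes with the highest GC content minus that of the tenth with the lowest was 0.39, -0.28 and 0.37 (log2) in 3XCTL replicates 1 to 3 and -0.41, 0.61 and -0.66 in those of 1xCtrl. These values varied within both lines (exact permutation p = 0.6 between them).

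The 6 control samples shared high levels of basal keratins and of epithelial junction genes, with the hormone receptors that define other breast cancer classes at low level. Levels of different genes are compared here per length, as counts per kilobase of exon scaled to one common total in each sample (as in TPM). They are given as the mean ± SD of the 6 controls. The length of a gene was that of its annotated exons of all isoforms combined, not that of the transcript expressed. Genes with many annotated exons may therefore be understated, and the order of genes depends on the annotation. The basal keratin KRT5 stood at 1654 ± 233, KRT6A at 732 ± 108 and KRT14 at 592 ± 209, and the basal transcription factor TP63 at 73.6 ± 6.45. EGFR, the receptor tyrosine kinase often high in basal-like tumours, stood at 195 ± 10.8, and CAV1, the coat protein of caveolae, at 740.2 ± 25.9. KRT5 was the highest of the basal markers. KRT6A is nearly identical to KRT6B and its reads may be shared between them.

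Estrogen receptor transcripts (ESR1) were at 1.87 ± 0.12 and progesterone receptor (PGR) at 0.148 ± 0.122, and no read of the secreted luminal peptide TFF3 was counted. ERBB2, which encodes HER2, was at 45.6 ± 10.6, below EGFR in all 6 samples. Luminal transcription factors were measured at 20.9 ± 3.34 (GATA3) and 14.02 ± 1.65 (FOXA1). The simple-epithelium keratins were nevertheless abundant, with KRT19 at 871 ± 288, KRT18 at 421 ± 75.2 and KRT8 at 172 ± 48.3, as was the surface adhesion protein EPCAM at 736 ± 68.1. Of the squamous genes, the suprabasal keratins KRT13 (396 ± 123) and KRT4 (259.6 ± 99.2) and the protease KLK5 (152 ± 16.5) were highest. E-cadherin (CDH1, 214 ± 9.95), the tight junction protein CLDN7 (327 ± 59.7) and desmoplakin (DSP, 293 ± 34.7) exceeded N-cadherin (CDH2, 11.4 ± 1.46) and fibronectin (FN1, 6.24 ± 1.01) more than 10-fold, and vimentin (VIM) and ZEB1, markers of mesenchymal cells, were at 0.898 ± 0.849 and 0.0608 ± 0.0490.

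Defining transcripts of blood, endothelial, fat and nerve-sheath cells were at or near 0. Of 25 such markers 6 had at most 3 counts in every control, among them CD3D, MS4A1, ADIPOQ, SOX10 and HBB with 0 counts in all 6 samples. PTPRC, the surface protein of all white blood cells, was at 0.0861 ± 0.0340 and the endothelial PECAM1 at 0.0393 ± 0.0172. The highest was the lysosomal protein CD68 at 14.8 ± 5.13, which epithelial cells also make and whose exons overlap another gene on the same strand. The summed level of the list was 11.7 to 18.2 CPM (counts scaled by library size with TMM factors) in 3XCTL and 13.7 to 23.3 CPM in 1xCtrl, so the lines overlapped.

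**Figure D1:**
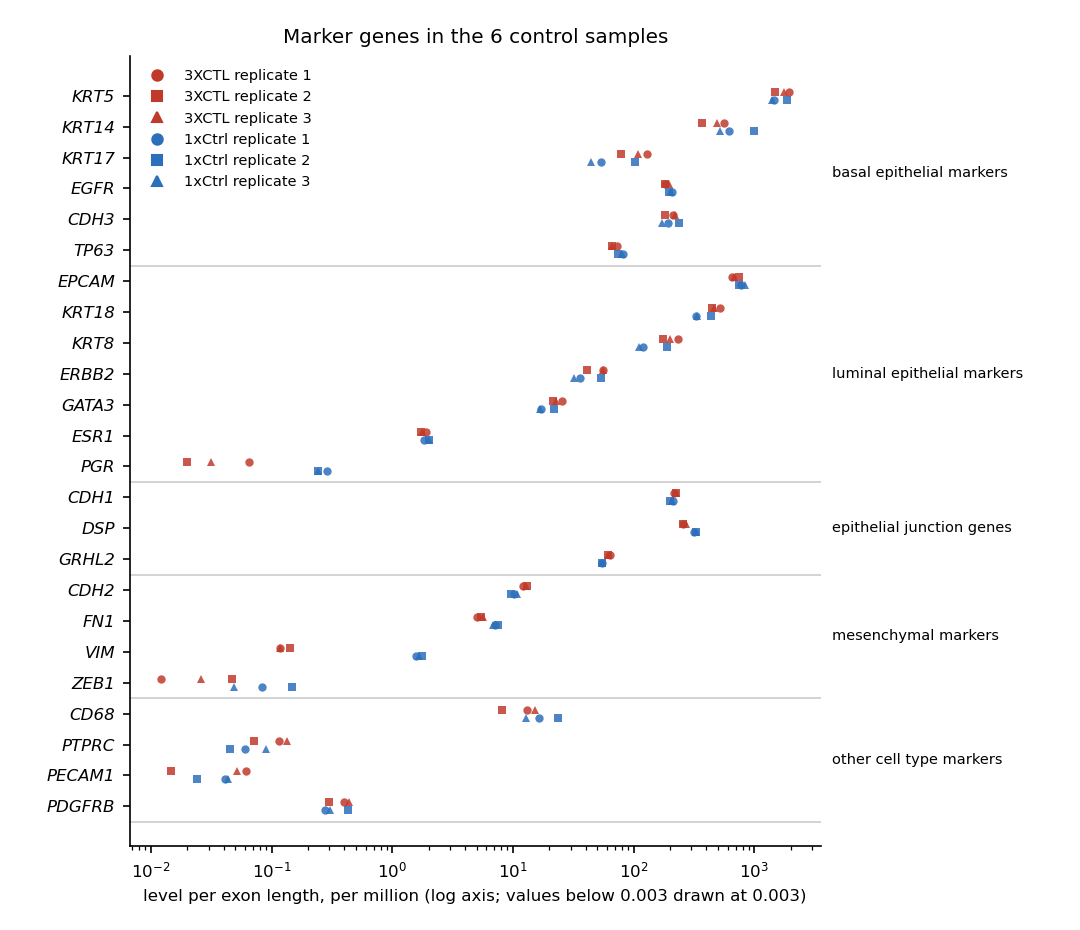
Levels of marker genes in each of the 6 control samples, per length as in TPM, on a log axis (red 3XCTL, blue 1xCtrl; shapes are replicates 1 to 3). KRT5, EPCAM and CDH1 lie 10-fold or more above CDH2 and FN1, and the VIM and PGR points of 3XCTL lie left of those of 1xCtrl.

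Among the 15 nuclear genes of highest level were calreticulin (CALR, 5125 ± 151), HSP90B1 (3500 ± 496), PDIA3 (2338 ± 149.6) and HSPA5 (2282 ± 241), which are chaperones and a disulfide isomerase of the endoplasmic reticulum. So were the ferritin light chain (FTL, 3676 ± 396), the actin-binding peptide TMSB10 (2525 ± 285), the glycolytic enzyme GAPDH (2439 ± 404), the cytosolic chaperone HSP90AB1 (2356 ± 119), the translation factor EEF1A1 (2314 ± 141) and the hyaluronan receptor CD44 (2080 ± 444). The further entries of the 15, MTCO1P12, MTATP6P1, MTND1P23 and MTND2P28, are nuclear copies of mitochondrial genes whose reads cannot be told apart from mitochondrial transcripts, and RPL41P1 is a copy of RPL41. The 10 highest nuclear genes held 6.48% to 7.50% of the summed per-length level, the 100 highest 20.6% to 21.9% and the 1000 highest 51.3% to 53.2%. These shares count the copies of mitochondrial genes as nuclear. MTCO1P12 (9536) and MTATP6P1 (7670) stood above CALR, so part of the shares may be mitochondrial reads. In all, 13799 genes, 12130 of them protein coding, reached 1 CPM in each of the 6 samples.

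The genes that the study overexpressed elsewhere were all well expressed in the controls. On the per-length scale SRSF2 was at 438 ± 30.0, SRSF7 at 252 ± 32.5, SRSF3 at 171 ± 11.7 and MYC at 118 ± 26.1, while the MYC paralog MYCN had no counts. The neighbouring CDK inhibitor genes CDKN2A and CDKN2B had 0 counts in all 6 samples. Of the cancer-testis antigens, normally made in germ cells, MAGEC2 (155 ± 24.3), MAGEA6 (111 ± 26.4), MAGEA3 (105 ± 22.1) and MAGEA4 (102 ± 20.4) were highest. MAGEA3, MAGEA6 and MAGEA12 are near-identical copies, so the split of reads between them is uncertain.

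The difference between the lines was tested with edgeR's quasi-likelihood test on the 6 samples, with Benjamini-Hochberg adjustment over 22321 genes. At an adjusted p under 0.05, 2892 genes (13.0%) were called: 1195 (5.35%) were higher in 3XCTL and 1697 (7.6%) were lower. Genes past 2-fold were more often lower in 3XCTL, with 156 genes higher and 560 lower. The median log2 fold change, given throughout as 3XCTL over 1xCtrl, was -0.01 over all genes. The lines shared most of their expressed genes: 45 genes reached 1 CPM in all 3XCTL samples and in no 1xCtrl sample, 152 the reverse, and no gene was detected in one line (at least 1 CPM in every sample) with at most 3 counts in each sample of the other. For 33.2% of genes the 95% interval of the log2 fold change lay within 0.5 of 0, and for 64.6% within 1.

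The count of genes rested on which samples entered. Without 1xCtrl replicate 2, the sample farthest from its own group, 2556 genes were higher and 2748 lower, and 2827 of the 2892 were called again. Leaving out one of the other samples gave fewer: 274 and 575 without 3XCTL replicate 1, 586 and 1040 without replicate 2, 334 and 780 without replicate 3, 289 and 576 without 1xCtrl replicate 1, and 491 and 872 without 1xCtrl replicate 3. Genes higher in 3XCTL made up 41.3% of calls, and 30.3% under upper-quartile scaling. With each sample's trend with GC content removed, 3029 were higher and 3780 lower, 2794 of them shared with the 2892 and in the same direction.

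Among genes at 5 CPM or more, the highest in 3XCTL over 1xCtrl encoded a synaptic adhesion protein, a cell junction protein and a secreted matrix protein. NLGN1 (neuroligin 1, chromosome 3, 173396284 to 174286644 on GRCh38, GENCODE 29) encodes a postsynaptic cell adhesion protein, and its level in replicates 1, 2 and 3 was 11.3, 10.5 and 11.2 CPM in 3XCTL against 2.70, 1.92 and 2.48 CPM in 1xCtrl (edgeR log2 fold change 2.23, SE 0.149, adjusted p = 0.000686). JCAD (ENSG00000165757.9, chromosome 10, 30012800 to 30115494), a protein of endothelial cell junctions, was at 21.2, 18.6 and 18.8 CPM in 3XCTL against 5.09, 5.29 and 4.23 CPM in 1xCtrl (edgeR log2 fold change 2.02, SE 0.119, adjusted p = 0.000490). EDIL3 (chromosome 5, 83940554 to 84384793), a secreted integrin ligand, was at 62.2, 61.3 and 58.6 CPM in 3XCTL against 19.2, 13.9 and 16.7 CPM in 1xCtrl (edgeR log2 fold change 1.88, SE 0.125, adjusted p = 0.000686). All 3XCTL samples lie above all 1xCtrl samples in these genes because the rule that chose them asks for it.

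SMAD6, an inhibitor of bone morphogenetic protein signalling (chromosome 15, 66702228 to 66782848), was at 29.4, 26.0 and 29.9 CPM in 3XCTL against 11.1, 11.2 and 11.1 CPM in 1xCtrl (edgeR log2 fold change 1.36, SE 0.0880, adjusted p = 0.000686). RBPMS2, an RNA-binding protein of smooth muscle (chromosome 15, 64739892 to 64775587), was at 19.6, 17.1 and 18.1 CPM in 3XCTL against 6.34, 7.90 and 6.28 CPM in 1xCtrl (edgeR log2 fold change 1.43, SE 0.121, adjusted p = 0.00132). Both lie on chromosome 15, as does SLC27A2, an acyl-CoA synthetase and transporter of very long-chain fatty acids (log2 fold change 1.24). Further genes were PLCE1, a phospholipase C (1.38), VGLL1, a cofactor of TEAD transcription factors (1.28), PAPSS2, which makes the cell's sulfate donor (1.26), and CXXC5, a zinc finger protein of WNT signalling (1.25). These 10 genes were called in all 6 fits that left out 1 sample. The other two of the 12 highest rested on few samples: UPK2 lost its call without 3XCTL replicate 1, 3XCTL replicate 2, 3XCTL replicate 3, 1xCtrl replicate 1 or 1xCtrl replicate 3 (edgeR adjusted p up to 0.128), and ARPC4-TTLL3 lost its call without 3XCTL replicate 2, 3XCTL replicate 3, 1xCtrl replicate 1, 1xCtrl replicate 2 or 1xCtrl replicate 3 (edgeR adjusted p up to 0.0971). The uroplakin gene UPK2 was at 19.0, 14.9 and 19.8 CPM in 3XCTL against 6.30, 10.7 and 5.61 CPM in 1xCtrl (log2 fold change 1.26). ARPC4-TTLL3, a readthrough transcript with 2758 of its 2765 exon bases shared with other genes, was at 7.26, 16.8 and 17.5 CPM in 3XCTL against 4.52, 4.26 and 3.62 CPM in 1xCtrl (log2 fold change 1.75), with replicate 1 of 3XCTL nearer to 1xCtrl than the other two.

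The 12 lowest genes in 3XCTL at 5 CPM or more were, from the lowest, STC1, CACNA2D1, LOXL2, ARMCX2, FKBP10, MME, ADD2, PCSK5, FBN2, NEFH, NPFFR2 and NTM. STC1, a secreted glycoprotein hormone (stanniocalcin 1, chromosome 8, 23841915 to 23854807), was at 1.2, 1.05 and 1.10 CPM in 3XCTL against 12.7, 8.25 and 11.2 CPM in 1xCtrl (edgeR log2 fold change -3.25, SE 0.186, adjusted p = 0.000490). CACNA2D1 (chromosome 7, 81946444 to 82443798), an auxiliary subunit of voltage-gated calcium channels, was at 1.56, 2.08 and 1.77 CPM in 3XCTL against 13.4, 10.3 and 12.4 CPM in 1xCtrl (edgeR log2 fold change -2.73, SE 0.156, adjusted p = 0.000490). The lowest 1xCtrl sample of either gene was several times the highest 3XCTL sample. LOXL2, a lysyl oxidase that crosslinks collagen (chromosome 8, 23297189 to 23425328), was at 2.93, 2.03 and 2.82 CPM in 3XCTL against 11.9, 16.0 and 10.9 CPM in 1xCtrl (edgeR log2 fold change -2.31, SE 0.208, adjusted p = 0.00153). FKBP10, a collagen chaperone of the endoplasmic reticulum (chromosome 17, 41812680 to 41823217), was at 26.6, 19.99 and 24.3 CPM in 3XCTL against 93.2, 138 and 83.4 CPM in 1xCtrl (edgeR log2 fold change -2.14, SE 0.222, adjusted p = 0.00387). FBN2, the microfibril protein fibrillin 2 (chromosome 5, 128257909 to 128659185), was at 3.19, 3.04 and 3.17 CPM in 3XCTL against 12.2, 9.45 and 11.5 CPM in 1xCtrl (edgeR log2 fold change -1.80, SE 0.125, adjusted p = 0.000738).

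MME, the surface peptidase neprilysin or CD10 (chromosome 3, 155024124 to 155183729), which marks myoepithelial cells in the breast, was at 5.67, 6.89 and 5.71 CPM in 3XCTL against 27.8, 21.9 and 27.3 CPM in 1xCtrl (edgeR log2 fold change -2.06, SE 0.13, adjusted p = 0.000627). ARMCX2, an armadillo-repeat gene of the X chromosome, was at 4.26, 4.41 and 4.53 CPM in 3XCTL against 21.2, 21.8 and 20.99 CPM in 1xCtrl (edgeR log2 fold change -2.27, SE 0.0818, adjusted p = 0.000279), with almost no spread inside either line. The others were the membrane skeleton protein ADD2 (log2 fold change -1.93), the proprotein convertase PCSK5 (-1.87), the neurofilament heavy chain NEFH (-1.74), the neuropeptide FF receptor NPFFR2 (-1.71) and the neuronal adhesion protein NTM (-1.71). All 12 were called in all 6 fits that left out 1 sample. That the lines do not overlap in them is part of the rule that chose them. Whether reads were counted by strand is not given in the sources used here, and 11 of the 24 genes share exon bases with a gene on the opposite strand, at most 557.

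**Figure D2:**
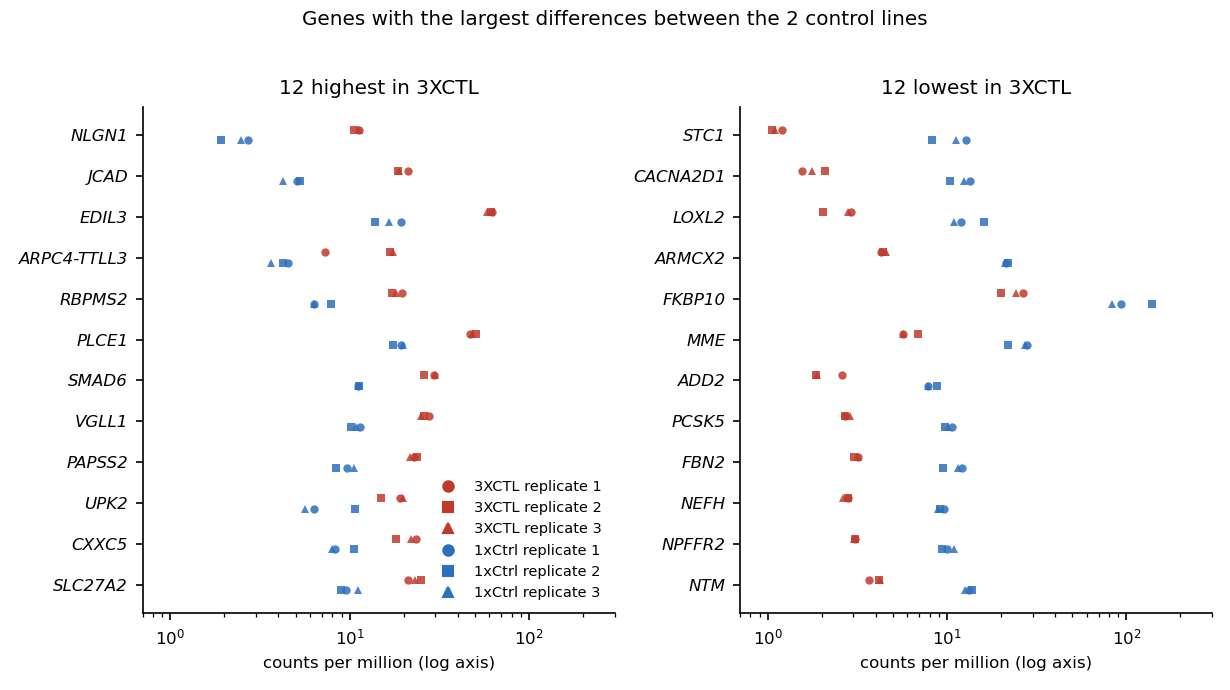
CPM (log axis) in each control sample for the 12 genes highest and the 12 lowest in 3XCTL over 1xCtrl among called genes at 5 CPM or more without overlap (red 3XCTL, blue 1xCtrl; shapes are replicates). The colours separate in every gene, as the rule asks; the narrowest gap is that of UPK2, between 14.9 CPM in 3XCTL replicate 2 and 10.7 CPM in 1xCtrl replicate 2.

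In the 5 overexpressing groups most of these genes lay on the 1xCtrl side of 3XCTL, also in 3XSR and MYC-OE, which were deposited in the table of 3XCTL. STC1 had group means of 7.79 CPM in 3XSR, 10.6 in MYC-OE, 9.44 in SRSF7-OE, 9.34 in SRSF3-OE and 6.43 in SRSF2-OE, and the 15 samples ranged from 5.89 to 10.7 CPM, beside about 1 CPM in 3XCTL. NLGN1 had means of 2.55, 1.61, 1.42, 1.26 and 1.51 CPM in the same order of groups, all below the 3XCTL samples at 10.5 to 11.3 CPM. JCAD was at 7.18, 9.26, 5.66, 2.02 and 5.62 CPM, lowest in SRSF3-OE and everywhere below 3XCTL. Of the 12 lowest genes, all 12 had all 3XCTL samples below each of the 18 other samples of the series, and of the 12 highest, 10 had them above. The rule fixed this for the 1xCtrl samples and not for the 15 others. The corresponding number for the 1xCtrl samples, lying beyond all 18 others on the opposite side, was 0 in both sets.

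Among the 2892 called genes, all 3XCTL samples lay beyond the 18 other samples in the direction of the call in 1383 (47.8%), and in 253 (8.75%) the 1xCtrl samples did. In 1270 (43.9%) neither did, and in 6 higher and 8 lower genes both did. Among genes higher in 3XCTL the shares were 46.6% for 3XCTL and 10.04% for 1xCtrl, and among lower genes 48.7% and 7.84%. Without replicate 2 of the control in question, the count was 1549 genes (53.6%) for 3XCTL and 473 (16.4%) for 1xCtrl. Leaving out a sample makes this easier for any gene, and the shares over all genes below are for all replicates. The rise is therefore not a result about the called genes. Over all genes tested, called or not, 3XCTL lay above all others in 8.18% of the 11015 genes where it was higher, and below all others in 10.97% of the 11306 where it was lower. For 1xCtrl, on the opposite side, these shares were 2.51% and 2.60%. These are counts of samples, with no test of the difference between the 2 lines.

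The overexpressing samples also allowed the tables to be compared without the controls, although genotype differs there too and cannot be told apart from the table. The mean of 3XSR and MYC-OE was set against that of the 3 single-SR groups over the 15 samples. Of 24657 genes 6753 (27.4%) were called, 3693 (15.0%) higher in the first table and 3060 (12.4%) lower. Of the genes higher in 3XCTL that were tested there, 651 of 1190 (54.7%) were called the same way and 49 (4.12%) the opposite way. Of those lower in 3XCTL, 674 of 1694 (39.8%) were called the same way and 169 (9.98%) the opposite way. These genes were chosen by their call between the controls, so the sizes are given as a description only. Their median log2 fold change there was 0.14 beside 0.47 between the controls for the first set, and -0.12 beside -0.72 for the second. Of the 24 named genes 11 were called the same way and 3 the opposite way (PCSK5, LOXL2 and FBN2, all lower in 3XCTL and higher in 3XSR and MYC-OE). With MYC-OE left out the contrast called 2183 higher and 1671 lower genes.

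**Figure D3:**
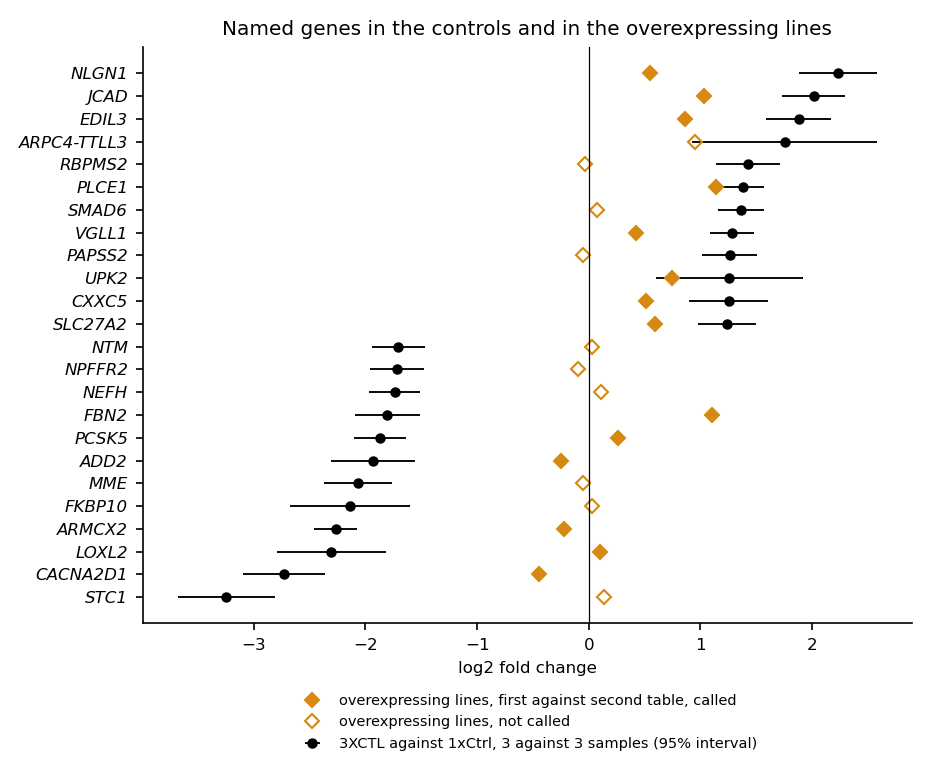
Log2 fold change of the 24 named genes between the control lines (black, with 95% interval) and between the overexpressing samples of the first and second table (orange diamonds, filled where called). Orange points lie nearer 0 than the black points, and those of FBN2, PCSK5 and LOXL2 are called on the other side of 0.

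The size of the difference was also set beside that of the study's own contrasts, in one fit over all 21 samples that shares the estimate of the spread. There 3XCTL against 1xCtrl gave 6539 called genes of 25013 (26.1%). Against 3XCTL, 3XSR gave 6217 (24.9%) and MYC-OE 7985 (31.9%). Against 1xCtrl, SRSF2-OE gave 6695 (26.8%), SRSF3-OE 8026 (32.1%) and SRSF7-OE 5334 (21.3%). Called genes over 2-fold numbered 1140 between the controls and 1387, 1972, 836, 1486 and 467 in the other contrasts, in the order given. The contrasts share the control samples and are therefore not independent of each other.

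The gene lists that follow were compiled for a basal breast cancer line and for splicing factor and MYC overexpression. Each count is of members tested and called at an adjusted p under 0.05, and the numbers in brackets are the lowest and highest counts of higher and of lower members over the 6 fits that each left out 1 sample, followed by the list's median log2 fold change, to be read beside -0.01 over all genes. The shares over all genes were 5.35% higher and 7.6% lower. A lack of overlap between the lines was common: it held in 7673 of the 22321 genes tested, called or not. Every one of the 36 lists had most calls when 1xCtrl replicate 2 was left out. Without it the median changed sign in 5 lists, to 0.07 for other cell types, 0.06 for the MYC network, -0.09 for mitochondrial transcripts, -0.02 for mitosis and 0.02 for collagen and matrix. With the GC trend removed it did so in 3, to -0.03 for basal markers, -0.01 for mitochondrial transcripts and -0.04 for MHC class I. In the 10 lists with 0 members called higher by edgeR, 6 members had an unadjusted p under 0.05 on that side, DESeq2 called 3 and voom 1. In the 8 with 0 called lower these numbers were 9, 0 and 0. The bulk samples do not tell fewer cells of a type from less RNA per cell. Unless stated otherwise, the genes named with a fold change were called in each of those 6 fits, and a mean is given ± SD over 3 replicates.

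Lineage markers kept the basal profile in both lines and differed in single genes. Of 22 basal markers 1 was higher and 3 lower in 3XCTL (0 to 4 and 1 to 4 with 1 sample left out; list median 0.06). The integrin subunit ITGA6, which anchors basal cells to laminin, was at 867, 956 and 939 CPM in 3XCTL against 1703, 1424 and 1663 CPM in 1xCtrl (edgeR log2 fold change -0.78, SE 0.0890, adjusted p = 0.00321). Of 21 luminal markers 5 were higher and 1 lower (2 to 10 and 0 to 1 with 1 sample left out; list median 0.33). AGR2, a disulfide isomerase of secretory cells, was at 128, 138 and 132 CPM in 3XCTL against 80.6, 67.7 and 82.3 CPM in 1xCtrl (edgeR log2 fold change 0.79, SE 0.0907, adjusted p = 0.00329), and the receptor tyrosine kinase KIT was at 12.1 ± 0.645 CPM in 3XCTL and 6.93 ± 0.688 in 1xCtrl (log2 fold change 0.81). The lines did not overlap in these 3 genes. KRT18 was called higher as well (497 ± 29.4 CPM in 3XCTL and 375 ± 47.2 in 1xCtrl; log2 fold change 0.42), but lost its call without 3XCTL replicate 1, 3XCTL replicate 2, 3XCTL replicate 3, 1xCtrl replicate 1 or 1xCtrl replicate 3 (edgeR adjusted p up to 0.153). The single lower luminal marker was PGR, at 0.316, 0.103 and 0.156 CPM in 3XCTL against 1.46, 1.15 and 1.2 CPM in 1xCtrl, and its call was lost without 3XCTL replicate 3 (edgeR adjusted p = 0.0515).

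Of 28 squamous differentiation genes 3 were higher and 9 lower (1 to 4 and 2 to 11 with 1 sample left out; list median -0.50). KRT4, a keratin of non-cornified squamous epithelium, was at 395, 348 and 375 CPM in 3XCTL against 174, 197 and 172 CPM in 1xCtrl (edgeR log2 fold change 1.05, SE 0.0863, adjusted p = 0.00124), whereas the cornified envelope protein and elastase inhibitor PI3 was at 8.97, 9.32 and 8.09 CPM in 3XCTL against 21.6, 24.4 and 25.3 CPM in 1xCtrl (edgeR log2 fold change -1.42, SE 0.0956, adjusted p = 0.000686). In the contrast of overexpressing samples 21 of 30 squamous genes were higher in the first table and 1 lower. Their median there was 1.05, the opposite side of 0 from the controls. Over all genes of that contrast 15.0% were higher and 12.4% lower. Other lists with many higher members there included the luminal markers (13 of 22), the junction genes (13 of 22) and the genes of cholesterol synthesis (16 of 30). So did the genes of the stress responses (16 of 31) and of neuronal adhesion and axon guidance (18 of 38, with 4 lower). MHC class I genes (8 of 18, 0 lower), respiratory chain genes (11 of 28, 2 lower) and basal markers (8 of 22, 2 lower) also exceeded the share of higher genes over all genes. Of 20 mesenchymal markers 2 were higher and 4 lower (2 and 1 to 5 with 1 sample left out; list median -0.42). Vimentin (VIM), an intermediate filament protein, was at 0.191, 0.244 and 0.195 CPM in 3XCTL against 2.65, 2.81 and 2.79 CPM in 1xCtrl (edgeR log2 fold change -3.70, SE 0.160, adjusted p = 0.000490), low in both lines and lower in 3XCTL. The calcium-binding protein S100A4 (log2 fold change 0.68) and the matrix proteoglycan lumican (LUM, 0.92) went the other way. Of 22 junction genes 2 were higher and 1 was lower (0 to 5 and 0 to 1 with 1 sample left out; list median 0.13), and none of these was called in all of the fits that left out a sample. Of 14 tested markers of blood, vessel, stromal and other cells 0 were called (0 to 2 and 0 with 1 sample left out; list median -0.17).

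Markers used to sort breast cancer stem cells split both ways: of 13 tested, 4 were higher and 4 lower in 3XCTL (3 to 4 and 2 to 5 with 1 sample left out; list median -0.34). CD44, the hyaluronan receptor, was at 5170, 5779 and 5389 CPM in 3XCTL against 8353, 7297 and 8155 CPM in 1xCtrl (edgeR log2 fold change -0.53, SE 0.0807, adjusted p = 0.00795). CD44 lost its call without 3XCTL replicate 1 (edgeR adjusted p up to 0.0510). CD24, a small surface glycoprotein whose low level beside high CD44 defines the sorted population, was at 145, 174 and 152 CPM in 3XCTL against 90.3, 75.3 and 89.5 CPM in 1xCtrl (edgeR log2 fold change 0.89, SE 0.102, adjusted p = 0.00323). The lines did not overlap in either gene. The retinal dehydrogenases ALDH1A1 (log2 fold change 0.72) and ALDH1A3 (0.65, on chromosome 15) were higher, and the protein C receptor PROCR (-0.92) and the transcription factor SOX9 (-0.84) were lower.

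Genes of adhesion to the matrix and of its remodelling were lower in 3XCTL more often than higher. None of 23 integrin and laminin genes was higher and 7 were lower (0 to 1 and 4 to 12 with 1 sample left out; list median -0.22). Next to ITGA6 these included the collagen-binding subunits ITGA2, at 169, 178 and 178 CPM in 3XCTL against 328, 248 and 307 CPM in 1xCtrl (edgeR log2 fold change -0.74, SE 0.110, adjusted p = 0.00747), and ITGA1 (log2 fold change -1.30), and ITGA4 (-1.05). Of 26 matrix proteases and their inhibitors 1 was higher and 7 were lower (0 to 3 and 5 to 11 with 1 sample left out; list median -0.20). The interstitial collagenase MMP1 was at 326, 386 and 387 CPM in 3XCTL against 1182, 994 and 1257 CPM in 1xCtrl (edgeR log2 fold change -1.63, SE 0.114, adjusted p = 0.000741), and stromelysin (MMP3, 0.410 ± 0.0652 CPM in 3XCTL and 1.26 ± 0.185 in 1xCtrl) and urokinase (PLAU, log2 fold change -0.76) were lower as well. The lines did not overlap in any of these genes.

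Of 31 collagen and matrix genes 5 were higher and 9 lower (2 to 6 and 3 to 10 with 1 sample left out; list median -0.20). Besides LOXL2 and FBN2, the lysyl oxidase LOX was lower (log2 fold change -1.23). Thrombospondin 1 (THBS1, on chromosome 15), an adhesive glycoprotein, was at 1230, 1355 and 1295 CPM in 3XCTL against 852, 856 and 814 CPM in 1xCtrl (edgeR log2 fold change 0.63, SE 0.0655, adjusted p = 0.00237), and the fibril-associated collagen COL12A1 was also higher (0.64). Of the genes called lower in 3XCTL, COL8A1 had 0 counts in each 3XCTL sample and 38, 18 and 23 counts in 1xCtrl. COL8A1 lost its call without 3XCTL replicate 1 or 1xCtrl replicate 1 (edgeR adjusted p up to 0.0710).

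Ligands of the EGFR family were lower in 3XCTL, and EGFR itself was not called. Of 15 receptors and ligands 0 were higher and 7 lower (0 to 1 and 2 to 8 with 1 sample left out; list median -0.33), all of the lower ones ligands. Heparin-binding EGF-like growth factor (HBEGF) was at 40.5, 43.6 and 44.5 CPM in 3XCTL against 81.9, 76.5 and 88.0 CPM in 1xCtrl (edgeR log2 fold change -0.93, SE 0.0807, adjusted p = 0.00139) and amphiregulin (AREG) had a log2 fold change of -0.61; the lines did not overlap in either. EGFR itself was at 729, 765 and 789 CPM in 3XCTL against 859.8, 752 and 829 CPM in 1xCtrl (log2 fold change -0.09, edgeR adjusted p = 0.520), with a 95% interval from -0.27 to 0.09. Of 26 immediate early genes and feedback inhibitors of the ERK kinases 1 was higher and 6 were lower (1 to 2 and 5 to 8 with 1 sample left out; list median -0.31). The ERK phosphatase DUSP6 was at 33.2, 32.5 and 33.3 CPM in 3XCTL against 60.2, 52.3 and 61.0 CPM in 1xCtrl (edgeR log2 fold change -0.80, SE 0.0828, adjusted p = 0.00237), the receptor signalling inhibitor SPRY4 at 9.03, 9.47 and 8.40 CPM in 3XCTL against 18.8, 16.0 and 17.9 CPM in 1xCtrl (edgeR log2 fold change -0.96, SE 0.0969, adjusted p = 0.00220) and the stress-induced factor ATF3 had a log2 fold change of -0.90. EGR1, a zinc finger transcription factor induced within minutes by growth factors, was the one higher member, at 15.003, 13.8 and 16.6 CPM in 3XCTL against 7.92, 9.39 and 8.34 CPM in 1xCtrl (edgeR log2 fold change 0.83, SE 0.113, adjusted p = 0.00566).

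No cytokine or chemokine of 23 tested was higher in 3XCTL and 6 were lower (0 to 1 and 4 to 9 with 1 sample left out; list median -0.64). Interleukin 1 alpha (IL1A), an alarm cytokine of epithelia, was at 14.3, 15.4 and 11.3 CPM in 3XCTL against 35.5, 28.6 and 33.4 CPM in 1xCtrl (edgeR log2 fold change -1.24, SE 0.135, adjusted p = 0.00277), and IL1B, its secreted relative, at 6.83, 8.27 and 6.74 CPM in 3XCTL against 16.6, 14.9 and 15.7 CPM in 1xCtrl (edgeR log2 fold change -1.10, SE 0.107, adjusted p = 0.00199). The interleukin IL24 and the chemokine CCL5 were low in both lines and lower in 3XCTL, CCL5 at 0.144 ± 0.0140 CPM in 3XCTL and 0.737 ± 0.236 in 1xCtrl. Of 32 interferon-stimulated genes 3 were higher and 10 lower (0 to 4 and 4 to 13 with 1 sample left out; list median -0.24). STAT2, a transcription factor of the interferon response, was at 62.8 ± 1.38 CPM in 3XCTL and 89.8 ± 3.50 in 1xCtrl (SD, n = 3; log2 fold change -0.51), and the antiviral proteins IFI44L (-0.98), OASL (-0.96) and RSAD2 (-2.62, under 1 CPM in all samples) were lower. Of 18 genes of antigen presentation by MHC class I 0 were called (0 and 0 to 1 with 1 sample left out; list median 0.05).

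Of the 36 lists, ion channels had the largest share of lower members with all 6 samples in the fit. Of 22 tested, 2 were higher and 11 lower (0 to 3 and 6 to 11 with 1 sample left out; list median -0.59). The large-conductance potassium channel KCNMA1 was at 1.27, 1.04 and 1.28 CPM in 3XCTL against 7.16, 7.71 and 6.79 CPM in 1xCtrl (edgeR log2 fold change -2.58, SE 0.137, adjusted p = 0.000490), and the cation channels TRPC6, at 1.06, 1.25 and 1.07 CPM in 3XCTL against 7.0, 5.68 and 6.32 CPM in 1xCtrl (edgeR log2 fold change -2.48, SE 0.137, adjusted p = 0.000490), and TRPC1 (log2 fold change -1.83) were also lower. The 3XCTL samples lay near 1 CPM in these genes and below all 1xCtrl samples. Of 35 genes of neuronal adhesion and axon guidance 3 were higher and 4 lower (2 to 5 and 2 to 5 with 1 sample left out; list median -0.08). NLGN1, described above, and the semaphorin receptor PLXNA2 (0.84) were higher, and the neural cell adhesion proteins NRCAM, at 7.63, 8.80 and 7.94 CPM in 3XCTL against 25.7, 19.4 and 25.5 CPM in 1xCtrl (edgeR log2 fold change -1.52, SE 0.131, adjusted p = 0.00135), and CNTN1 (-1.04) were lower.

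Of 40 WNT and Notch genes 1 was higher and 11 were lower (0 to 3 and 5 to 12 with 1 sample left out; list median -0.13). The ligand WNT5A was at 2.30, 2.32 and 2.70 CPM in 3XCTL against 7.65, 6.01 and 7.0 CPM in 1xCtrl (edgeR log2 fold change -1.48, SE 0.138, adjusted p = 0.00168), the secreted DKK family member DKK3 at 18.6, 21.2 and 20.2 CPM in 3XCTL against 54.8, 57.1 and 54.5 CPM in 1xCtrl (edgeR log2 fold change -1.46, SE 0.0752, adjusted p = 0.000490), and the receptor FZD4 had a log2 fold change of -0.84. Of 25 genes of the TGF-beta and BMP pathways 8 were higher and 3 lower (2 to 8 and 0 to 6 with 1 sample left out; list median 0.11). The inhibitory SMAD6 led them, and ID2, an inhibitor of DNA binding that BMP signals induce, was higher as well (9.93 ± 0.565 CPM in 3XCTL and 6.49 ± 0.0976 in 1xCtrl; log2 fold change 0.62). SMAD6 and SMAD3 of the higher members lie on chromosome 15. SMAD3 was called in only 1 of the 6 fits that left out 1 sample (edgeR adjusted p up to 0.174), and SMAD6 in all 6. Of 22 target genes of YAP and TEAD 4 were higher and 2 lower (1 to 5 and 2 to 3 with 1 sample left out; list median 0.06). The receptor tyrosine kinase AXL was at 4.99, 5.76 and 4.72 CPM in 3XCTL against 14.7, 17.0 and 14.6 CPM in 1xCtrl (edgeR log2 fold change -1.57, SE 0.113, adjusted p = 0.000796) and the surface nucleotidase NT5E (CD73) had a log2 fold change of -1.08, while the muscle ankyrin repeat protein ANKRD1 was higher (0.80).

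**Figure D4:**
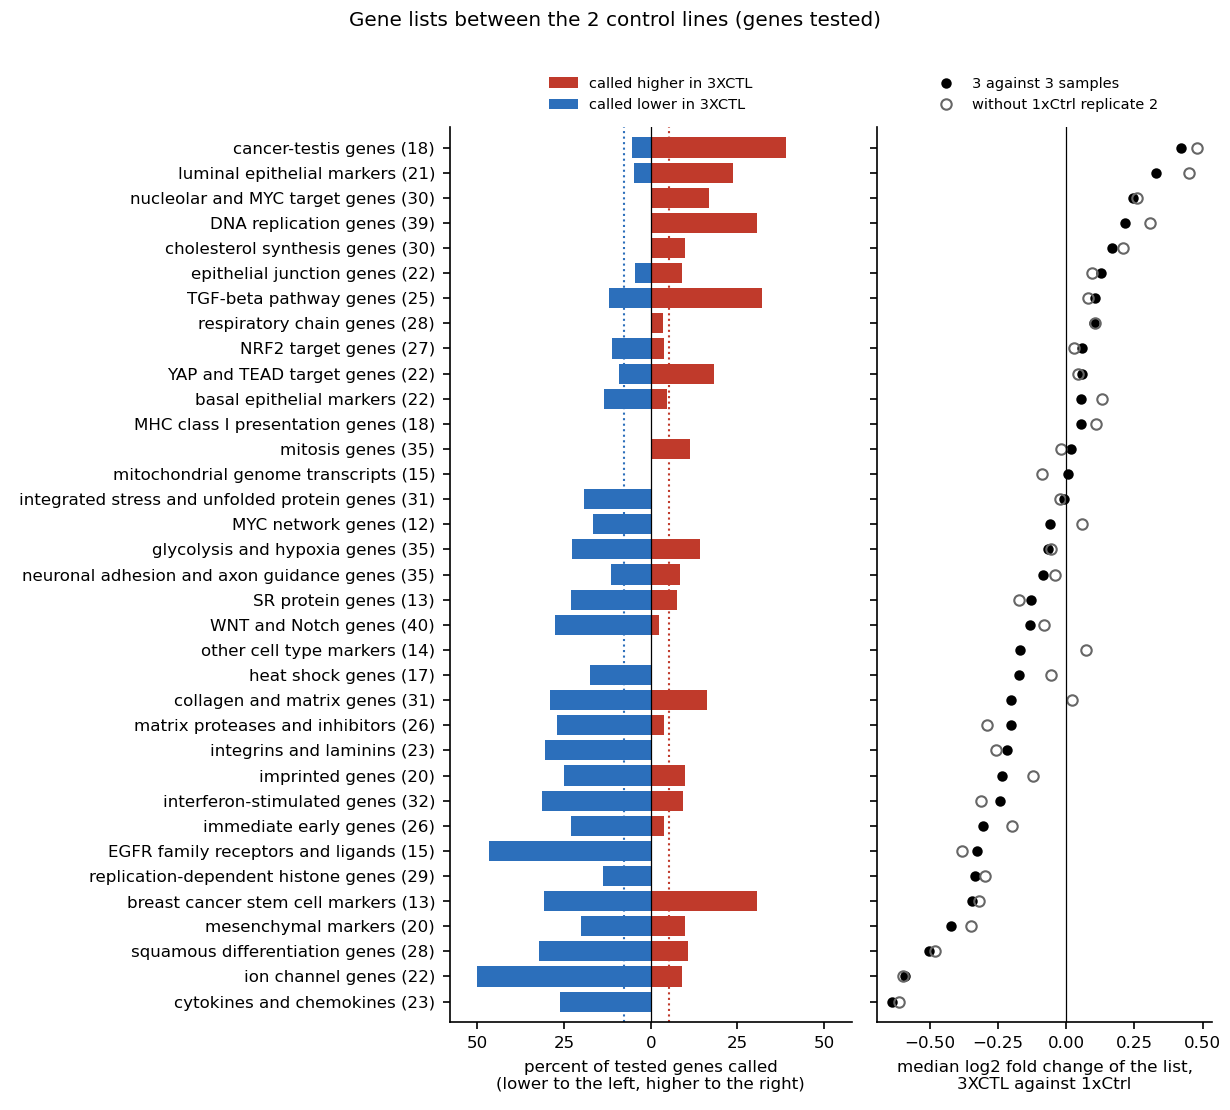
Left, percent of tested members of each gene list described here called lower (blue) or higher (red) in 3XCTL, with dotted lines at the shares over all genes (7.6% lower, 5.35% higher); right, the list's median log2 fold change with all 6 samples (black) and without 1xCtrl replicate 2 (open). Cancer-testis, luminal, nucleolar and DNA replication genes have the highest medians, and cytokines and ion channels the lowest.

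MYC was lower in 3XCTL than in 1xCtrl, while some nucleolar and DNA replication genes were called higher with all 6 samples. In these 2 lists no gene was called lower with all 6 samples or with 1 left out. With the GC trend removed 1 and 3 were lower, and in the fit of all 21 samples 0 and 1. MYC (chromosome 8, 127735434 to 127741434) was at 96.9, 91.3 and 92.8 CPM in 3XCTL against 131, 146 and 124 CPM in 1xCtrl (edgeR log2 fold change -0.50, SE 0.0812, adjusted p = 0.0101). MYC lost its call without 3XCTL replicate 1, 3XCTL replicate 3 or 1xCtrl replicate 1 (edgeR adjusted p up to 0.0575). Of 12 genes of the MYC network 0 were higher and 2 lower (0 to 1 and 0 to 3 with 1 sample left out; list median -0.06), the second being MXI1, an antagonist of MYC. MXI1 lost its call without 3XCTL replicate 1 (edgeR adjusted p up to 0.0527). Of 30 nucleolar and MYC target genes 5 were higher and 0 lower (0 to 14 and 0 with 1 sample left out; list median 0.24), led by CDK4 (137 ± 2.91 CPM in 3XCTL and 98.4 ± 8.29 in 1xCtrl), the cyclin D-dependent kinase. None of the 5 was called in all of the fits that left out a sample. CDK4 lost its call without 3XCTL replicate 1, 3XCTL replicate 3 or 1xCtrl replicate 1 (edgeR adjusted p up to 0.0694). Of 39 DNA replication genes 12 were higher and 0 lower (2 to 18 and 0 with 1 sample left out; list median 0.22). The GINS subunit GINS2, part of the replicative helicase, was at 32.0, 34.2 and 32.7 CPM in 3XCTL against 22.7, 22.99 and 24.2 CPM in 1xCtrl (edgeR log2 fold change 0.51, SE 0.0694, adjusted p = 0.00573), and the flap endonuclease FEN1 at 107, 103 and 103 CPM in 3XCTL against 71.3, 79.0 and 74.3 CPM in 1xCtrl (edgeR log2 fold change 0.49, SE 0.0684, adjusted p = 0.00619).

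Of 35 mitosis genes 4 were higher and 0 lower (0 to 5 and 0 to 2 with 1 sample left out; list median 0.02). The higher ones were the cyclin CCNB2, the spindle midzone proteins KIF23 and PRC1, and the survivin gene BIRC5, of which the first 3 lie on chromosome 15; PRC1 also shares exons with a same-strand gene. None of them was called in all of the fits that left out a sample: BIRC5 lost its call without 3XCTL replicate 1, 3XCTL replicate 3, 1xCtrl replicate 1 or 1xCtrl replicate 3 (edgeR adjusted p up to 0.110); PRC1 lost its call without 3XCTL replicate 1 or 1xCtrl replicate 1 (edgeR adjusted p up to 0.0520). Of 29 genes of replication-dependent histones and their relatives 0 were higher and 4 lower (0 and 1 to 6 with 1 sample left out; list median -0.33). Most of these transcripts lack a poly(A) tail, and the libraries were selected for poly(A). H2BC21 had the largest difference, at 1.69 ± 0.126 CPM in 3XCTL and 3.08 ± 0.189 in 1xCtrl (log2 fold change -0.86).

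Metabolic genes had called members on both sides. Of 35 glycolysis and hypoxia genes 5 were higher and 8 lower (1 to 8 and 3 to 10 with 1 sample left out; list median -0.07). The angiogenic factor VEGFA, a target of hypoxia-inducible factors, was at 213, 194 and 208 CPM in 3XCTL against 380.4, 355 and 339.8 CPM in 1xCtrl (edgeR log2 fold change -0.80, SE 0.0770, adjusted p = 0.00197), and the mitophagy receptor BNIP3 (log2 fold change -0.95) and the kinase PDK1 (-0.85), which closes the entry of pyruvate to mitochondria, were lower too. Pyruvate kinase (PKM, on chromosome 15) was at 1422, 1219 and 1317 CPM in 3XCTL against 856, 945 and 823 CPM in 1xCtrl (edgeR log2 fold change 0.60, SE 0.0894, adjusted p = 0.00747). None of 31 genes of the integrated stress and unfolded protein responses was higher and 6 were lower (0 to 6 and 1 to 9 with 1 sample left out; list median -0.01), ATF3 with the largest called difference. Of 17 heat shock genes 0 were higher and 3 lower (0 to 1 and 1 to 5 with 1 sample left out; list median -0.17), among them the HSP90 cochaperone FKBP4 (-0.43). Of 30 cholesterol synthesis genes 3 were higher and 0 lower (1 to 6 and 0 to 4 with 1 sample left out; list median 0.17), among them INSIG1 (0.44), which retains the sterol sensor in the endoplasmic reticulum.

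Of 27 NRF2 target genes 1 was higher and 3 lower (0 to 6 and 0 to 7 with 1 sample left out; list median 0.06). Of 28 respiratory chain genes of the nuclear genome 1 was higher and 0 lower (0 to 5 and 0 to 1 with 1 sample left out; list median 0.10), and of 15 mitochondrial transcripts 0 were called (0 and 0 to 1 with 1 sample left out; list median 0.01). The higher respiratory chain gene, COX5A, lies on chromosome 15 and was called in only 2 of the 6 fits that left out 1 sample.

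Cancer-testis genes had the highest median of the lists: of 18 tested, 7 were higher in 3XCTL and 1 lower (4 to 8 and 1 with 1 sample left out; list median 0.42). MAGEA10 was at 52.9, 59.2 and 57.1 CPM in 3XCTL against 32.6, 31.0 and 35.4 CPM in 1xCtrl (edgeR log2 fold change 0.78, SE 0.0810, adjusted p = 0.00237) and MAGEA4 at 123, 118 and 119 CPM in 3XCTL against 79.2, 86.8 and 82.4 CPM in 1xCtrl (edgeR log2 fold change 0.54, SE 0.0665, adjusted p = 0.00416). MAGEA3 and MAGEA6 were higher too, with the uncertainty of their shared reads, and MAGEA11 was lower at 0.518 ± 0.0466 CPM in 3XCTL and 2.07 ± 0.0450 in 1xCtrl (log2 fold change -1.99). Imprinted genes, which are expressed from one parental allele, went both ways, with 2 of 20 higher and 5 lower (1 to 3 and 2 to 7 with 1 sample left out; list median -0.24). The receptor adaptor GRB10 was at 1.19, 1.30 and 1.40 CPM in 3XCTL against 4.99, 5.08 and 4.30 CPM in 1xCtrl (edgeR log2 fold change -1.87, SE 0.134, adjusted p = 0.000796) and the transcription factor PLAGL1 at 20.5, 21.7 and 19.9 CPM in 3XCTL against 51.5, 48.1 and 47.7 CPM in 1xCtrl (edgeR log2 fold change -1.24, SE 0.0726, adjusted p = 0.000490). MEST, a hydrolase-like protein of the mesoderm, was higher (262 ± 27.0 CPM in 3XCTL and 145 ± 12.7 in 1xCtrl; log2 fold change 0.87).

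The splicing factor genes that the study overexpressed were compared last. Of 13 SR protein genes 1 was higher and 3 were lower (0 to 1 and 0 to 6 with 1 sample left out; list median -0.13). SRSF2 (chromosome 17, 76734115 to 76737374) was at 396, 425 and 392 CPM in 3XCTL against 443, 420.5 and 473 CPM in 1xCtrl (log2 fold change -0.13, edgeR adjusted p = 0.278; 95% interval -0.29 to 0.04). SRSF3 (chromosome 6, 36594353 to 36605600) was at 398, 445 and 387 CPM in 3XCTL against 376, 340.2 and 411 CPM in 1xCtrl (log2 fold change 0.14, edgeR adjusted p = 0.368; 95% interval -0.07 to 0.35), with overlapping samples in both genes. SRSF7 (chromosome 2, 38743599 to 38751494) was at 291, 307 and 281 CPM in 3XCTL against 364, 358 and 369 CPM in 1xCtrl (edgeR log2 fold change -0.30, SE 0.0610, adjusted p = 0.0206). SRSF7 lost its call without 3XCTL replicate 1, 3XCTL replicate 2, 3XCTL replicate 3, 1xCtrl replicate 1 or 1xCtrl replicate 3 (edgeR adjusted p up to 0.104).

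Genes higher in 3XCTL were concentrated on chromosome 15. Of 775 genes tested on that chromosome, 210 (27.1%) were higher in 3XCTL and 23 (2.97%) were lower, beside 974 (4.63%) and 1636 (7.78%) of the 21040 genes on the other chromosomes. The share of higher genes on each other chromosome lay between 2.57% and 6.40%, and chromosome 15 held 17.6% of all genes called higher. The difference was moderate and broad: the median log2 fold change over its tested genes was 0.31. Without 1xCtrl replicate 2, 266 (33.2%) were higher. Without 1xCtrl replicate 1 or 3 the number was 70 (8.74%) or 128 (16.0%), and without 3XCTL replicate 1, 2 or 3 it was 71 (8.89%), 118 (14.8%) or 90 (11.2%), beside 0.916% to 10.4% elsewhere in those 6 fits. With the GC trend removed 322 (41.5%) were higher.

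The shift was seen in each sample. Over 474 genes of chromosome 15 with a mean of at least 1 CPM, the median deviation from the mean of the 6 controls was 0.15, 0.20 and 0.15 (log2) in 3XCTL replicates 1 to 3 and -0.17, -0.21 and -0.13 in 1xCtrl. The difference of the group means was 0.33, and on the other chromosomes it lay between -0.13 and 0.13. The samples of the lines did not overlap on chromosomes 9 and 20 either, where they differed by 0.04 and -0.06. In the median over the whole of chromosome 15 all 5 overexpressing groups lay below 3XCTL. Their means were -0.16 in 3XSR, -0.06 in MYC-OE, -0.13 in SRSF7-OE, -0.41 in SRSF3-OE and -0.21 in SRSF2-OE. The group deposited with 3XCTL that was closest to 1xCtrl there was 3XSR. In the contrast of overexpressing samples 258 of 855 genes of the chromosome (30.2%) were higher in the first table and 4.80% lower, beside 15.0% and 12.4% over all genes. On the other chromosomes the share of higher genes reached 20.7% (chromosome 9) and 18.8% (chromosome 22).

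Along the genome, 350 consecutive blocks of 40 such genes were compared. In 82 blocks (23.4%) the samples of the lines did not overlap, and 9 of these differed by at least 0.3 (log2) between the group means. On chromosome 15 lay 6 of the 9, all higher in 3XCTL by 0.32 to 0.46, between positions 44711487 and 90963125. The widest difference was in the block from USP3 to C15orf61 (63504511 to 67530143), which holds SMAD3 and SMAD6 and in which 32 of 40 tested genes were higher and 0 lower. The block from B2M to ATOSA (44711487 to 52709817) had 20 higher genes. MYC-OE was not uniform along these 6 blocks. Its mean was 0.24 from MAP2K5 to ARID3B and 0.21 from CLK3 to CHRNA5, above the 3XCTL means of 0.16 and 0.20. It was 0.18 from USP3 to C15orf61 and 0.16 from ZNF592 to RCCD1. From WDR72 to CA12 it was -0.18, and from B2M to ATOSA -0.52. The remaining overexpressing groups had means below 0 in all 6 blocks. The other 3 blocks were lower in 3XCTL. They lay on chromosome 2 from 169584340 to 177223958 (-0.39), on chromosome 12 from 24810022 to 32383633 (-0.37) and on chromosome 19 from 20167228 to 32713796 (-0.38). In those 3 blocks 1xCtrl replicate 2 lay nearer to 3XCTL than the other 1xCtrl samples did, at 0.08, 0.02 and 0.04, and their median GC content was 41.2%, 40.7% and 39.8%. On chromosome 15 the median GC content was 41.2% from B2M to ATOSA and 41.7% from WDR72 to CA12. Those blocks were higher in 3XCTL, by 0.41 and 0.43. The overexpressing groups had means of 0.42 to 0.59 in the chromosome 2 block, beside -0.20 in 3XCTL and 0.19 in 1xCtrl. Their means were 0.09 to 0.39 in the chromosome 12 block and -0.27 to 0.16 in the chromosome 19 block. The part of GC content in the differences between the lines was not tested.

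**Figure D5:**
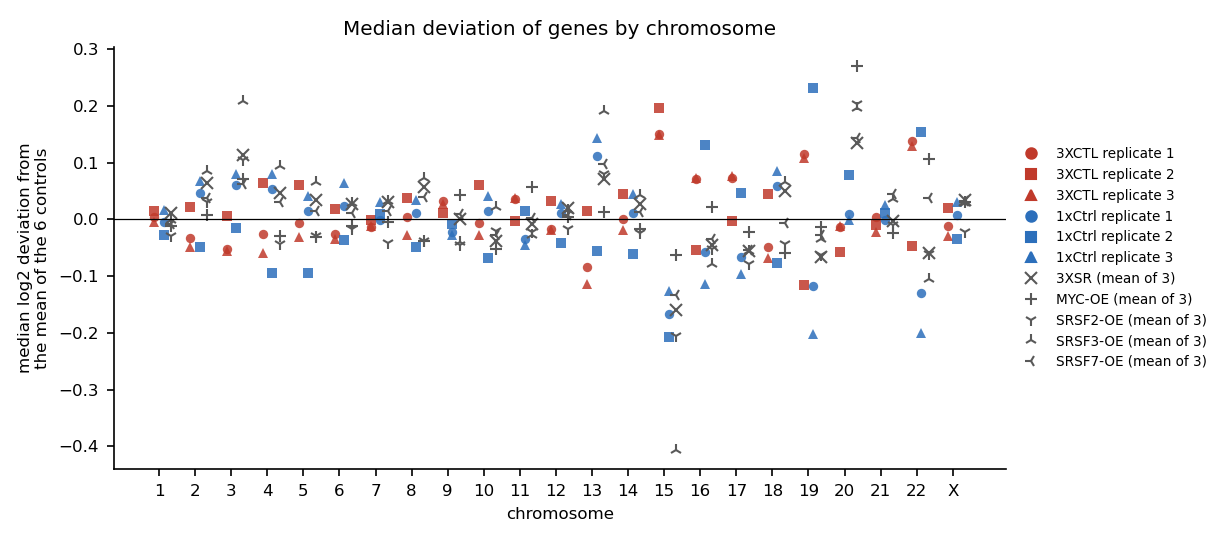
Median log2 deviation of expressed genes from the mean of the 6 controls, by chromosome, for each control sample (red 3XCTL, blue 1xCtrl) and the mean of each overexpressing group (grey symbols). On chromosome 15 the red points lie at 0.15 to 0.20 and the blue and grey symbols below 0; on chromosome 19 replicate 2 of either line lies on the side of the other line.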

How the data were processed

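Read counts per gene were used as the authors deposited them, in 2 tables of 60668 Ensembl identifiers, whose values are whole numbers and not normalised. Per the labels' protocols, DNase-treated total RNA was made into stranded paired-end libraries after poly(A) selection. Per the submitters' processing notes, reads were processed with Trimmomatic 0.39, STAR and StringTie 2.1.3b on GRCh38.p13; the annotation release and the strand setting of the counting are not given in the sources used here. The 21 samples held 143269192 to 303323552 counts, a depth at which counting error is small except for genes of few counts. Samples were grouped by their titles. The replicate pairs of the 2 control lines all differed by more than sampling noise, and those of the overexpressing groups were not examined for this.

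Symbols were given for 42044 identifiers, and positions, lengths and GC content come from GENCODE 29 (58561 identifiers found, 41806 of them in the same version). Genes passing filterByExpr of edgeR 4.0.16 (minimum count 10, minimum total 15) were scaled with TMM factors and tested with its quasi-likelihood test in R 4.3.3, with Benjamini-Hochberg adjustment and a threshold of 0.05. CPM values use the TMM factors of all 21 samples, while the test of the control lines used factors from the control samples alone. CPM values and the fold changes beside them are therefore not on exactly the same scale. DESeq2 1.42.0, limma-voom (limma 3.58.1), other scalings and filters, a fit of all 21 samples, a minimum fold, thinned counts, removal of each sample's GC trend (in 50 bins of genes) and leaving out each sample were alternatives. The test was also run on simulated counts with 200 genes changed 2-fold. In the comparison of 3XCTL with 1xCtrl, over 21823 genes, it called 178. These were 157 of the 200 changed genes (78.5%) and 21 unchanged ones. In that of the overexpressing samples, over 24100 genes, it called 209, with 198 changed and 11 unchanged. How many unchanged genes are called in the real samples, given their differences in GC content and between replicates, was not tested. Tables were drawn up with pandas 2.3.3 and figures with matplotlib 3.10.9.

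The samples, gene lists and tests were chosen with earlier results of these data known. Genes were named by rule: the 12 highest and the 12 lowest log2 fold changes among called genes with a symbol, a mean of at least 5 CPM and no overlap between the lines; the 15 nuclear genes of highest level per length; in each list the 2 members of highest level and up to 3 called members with the largest change each way; and MYC, SRSF2, SRSF3 and SRSF7. AREG, STAT2, FZD4, IL1A, IL1B, OASL, MAGEA4, ITGA2, LOX, PLAU, ID2, KRT18, BIRC5 and SMAD3, and the defining baseline markers that no part of the rule names, were named after their values were seen. Single genes and 1 of the 36 lists are not reported here.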

Additional observations from a re-analysis of the deposited data

How the results depend on the processing

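The split of 1195 higher and 1697 lower genes between 3XCTL and 1xCtrl stayed within 1.5 times under RLE scaling (1235 and 1652), scaling to total counts (965 and 1960), no filter (1102 and 1627), at least 10 counts in each sample (1234 and 1782), DESeq2 (1552 and 2047), limma-voom (1187 and 1685) and counts thinned to the smallest sample (1217 and 1721). It did not stay so under upper-quartile scaling (739 higher), in the fit of all 21 samples (2873 and 3666), with the GC trend removed (3029 and 3780), with a minimum log2 fold change of 1 (14 and 64), or with 1 sample left out (274 to 2556 higher, 575 to 2748 lower). The minimum fold sets a stricter threshold. The fit of all 21 differs in its samples, its scaling factors, its estimate of the spread and the genes tested (25013 against 22321). Which of these changed its counts was not tested, nor was the cause for the other settings. The contrast of overexpressing samples gave 3693 and 3060, fell to 23 and 3 with the minimum fold and to 2183 and 1671 without MYC-OE, and stayed within 1.5 times of both counts in the other alternatives run. Of the named genes, CLDN7, which was not called, changed sign with the GC trend removed (-0.16).

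Deviations of same-numbered 3XCTL and 1xCtrl samples correlated at -0.09, -0.33 and -0.09, and no sample of the 6 correlated best with its own number. The deviations of 3 samples from their own mean sum to 0. These correlations therefore cannot decide whether same-numbered samples shared a culture or a day. A fit with the replicate number as a block called 51 higher and 190 lower genes, 239 of them among the 2892. The counts by gene list and by chromosome 15 with a sample left out or the GC trend removed were added after the data had been seen: each of the 36 lists had more calls without 1xCtrl replicate 2 and with the GC trend removed, and list medians changed sign in 5 and in 3 lists. Depth limits only genes of few counts.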

Other observations

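The progesterone receptor gene PGR had 76, 19 and 28 counts in the 3XCTL samples and 264, 262 and 230 counts in the 1xCtrl samples. Its group means were 0 CPM in 3XSR, MYC-OE and SRSF2-OE, 0.0117 CPM in SRSF3-OE and 0.00277 CPM in SRSF7-OE, so the few PGR reads of the series lay almost entirely in the control samples.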
